A study of Homo sapiens with 8 samples.

Results

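Keratins are the intermediate filament proteins of epithelial cells, and the mRNAs of 9 keratin genes, *KRT7*, *KRT8*, *KRT10*, *KRT17*, *KRT18*, *KRT19*, *KRT75*, *KRT80* and *KRT81*, were followed in PHF13-depleted Panc-1 cells. They were chosen by name as a gene family, and the choice used the readout, since *KRT75* was picked as one of the largest increases after depletion. Of the 9, 8 were measured among the 13307 genes, and *KRT17* was not analysed here. Values of the 8 genes in the comparisons of siPHF13 with siNC are therefore given as a description without a test, while their responses to TGFβ were tested. Panc-1 (PANC-1 in the labels) is an established human line from a carcinoma of the pancreatic duct. Cells received a control siRNA (siNC, labelled siControl) or siRNA against PHF13, a chromatin reader of H3K4me3, by RNAiMAX transfection, and were left untreated or cultured from the next day with 10 ng/ml TGFβ for 48 h, a cytokine that drives epithelial-mesenchymal transition (EMT). This gave 4 groups of 2 libraries of polyA RNA: siNC, siPHF13, siNC + TGFβ and siPHF13 + TGFβ. All groups were transfected cultures of 1 cell line. The labels do not say whether the 2 libraries of a group came from separate cultures, so the p-values below measure the spread between these libraries, which may be technical.

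Keratin filaments are built from obligate pairs of a type I and a type II keratin. *KRT7*, *KRT8*, *KRT75*, *KRT80* and *KRT81* encode type II keratins, and *KRT10*, *KRT17*, *KRT18* and *KRT19* encode type I keratins. Keratins 8 and 18 form the basic filament network of simple epithelia, keratins 7 and 19 mark ducts, and loss of keratins in favour of vimentin filaments is a common feature of EMT. Keratin 10 belongs to the differentiated layers of the epidermis, keratin 75 to the companion layer of the hair follicle and keratin 81 to the hair shaft.

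Each library held 39196214 to 46700806 reads on genes. *PHF13* was measured at 1804 and 1662 normalized counts in siNC against 524.2 and 558.3 in siPHF13, and with TGFβ at 1586 and 1709 against 512.8 and 529.4, so that 31.2% of the control level was left without TGFβ and 31.6% with it. Normalized counts are reads on a gene divided by a size factor of the library. All 6 markers fixed for pancreatic duct carcinoma (*KRT7*, *KRT8*, *KRT18*, *KRT19*, *SOX9* and *EPCAM*) were detected, with a summed level between 131136 and 208584. Of 6 hair follicle markers 3 were measured (*KRT75*, *KRT86* and *HOXC13*), of 5 squamous markers *TP63* at no more than 33.2, of 5 fibroblast markers *PDGFRB* at no more than 57.1, and of 3 leukocyte markers *CD68*, which many cells use in their lysosomes. *HOXC13* was at 1532 and 1640 in siNC against 1308 and 1512 in siPHF13, and with TGFβ at 1099 and 1055 against 1076 and 1145. It thus did not rise with depletion as *KRT75* and *KRT86* did. The mean of *CD68* was 7298 in siNC against 12475 in siPHF13, and with TGFβ 6902 against 11962, and thus moved with depletion like *KRT75* and *KRT81* below, and its part in the result was not tested. In these bulk libraries fewer cells with a transcript and less of it per cell cannot be told apart.

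The 250 bases upstream of the start of *KRT75*, which differed most after depletion among the 8 chosen genes, and of *KRT10*, which differed little, are shown for comparison from RefSeq on GRCh38.p14, at chr12:52434372-52434621 and chr17:40822615-40822864, both on the minus strand and read 5′ to 3′ towards the start. Of the 8 genes 3 matched this promoter set. Capitals mark the matches among 5 motifs searched on both strands, namely the TATA box TATAAA, the AP1 site TGANTCA, the SNAI/ZEB E-box CAGGTG, the GC box GGGCGG and the SMAD box CAGAC.
KRT75: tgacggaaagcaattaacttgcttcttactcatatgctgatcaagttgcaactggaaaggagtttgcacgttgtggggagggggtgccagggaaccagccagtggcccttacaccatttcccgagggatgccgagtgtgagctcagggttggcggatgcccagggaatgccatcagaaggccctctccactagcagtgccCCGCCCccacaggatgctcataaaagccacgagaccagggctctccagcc
KRT10: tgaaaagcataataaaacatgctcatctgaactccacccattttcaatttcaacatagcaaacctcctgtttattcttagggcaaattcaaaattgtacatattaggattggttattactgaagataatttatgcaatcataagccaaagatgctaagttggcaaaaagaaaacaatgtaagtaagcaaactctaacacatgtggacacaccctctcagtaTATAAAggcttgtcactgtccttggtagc
The *KRT75* window held a GC box on the opposite strand, from base -50 to base -45 before the start, a motif found in 42.5% of 34943 promoter windows of this length. The *KRT10* window held a TATA box from -29 to -24, found in 10.8% of windows. The AP1, E-box and SMAD letters occur in 6.59%, 17.5% and 38% of windows. GC content was 57.2% for *KRT75* and 34.8% for *KRT10*.

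In control cells 3 keratin genes of simple epithelium were lower after TGFβ. *KRT19* fell by 44.0%, *KRT8* fell by 37.5% and *KRT18* fell by 32.6%, whereas 0 of the other 5 genes passed an adjusted p of 0.05 by limma, edgeR or DESeq2, or an unadjusted p of 0.05 by limma. *KRT19*, encoding the small type I keratin of ducts, was measured at 32426 and 34318 normalized counts in siNC and at 18358 and 18991 in siNC + TGFβ (log2 fold change -0.84, SE 0.06, limma adjusted p = 9.92e-07). *KRT8* was measured at 113039 and 120045 in siNC and at 70722 and 74889 with TGFβ (-0.68, SE 0.08, limma adjusted p = 6.07e-05). Its partner *KRT18* was measured at 47375 and 49041 in siNC and at 32037 and 32946 with TGFβ (-0.57, SE 0.07, limma adjusted p = 5.84e-05). For each of the 3 genes both treated libraries lay below both untreated ones. By chance alone 2 against 2 libraries separate fully with a probability of 0.333, which holds for every statement of overlap below. *KRT7* separated too, with both treated libraries higher (0.05, limma adjusted p = 0.872), as did *KRT75*, with both lower (-0.45, limma adjusted p = 0.203). The share of all genes that separated is not given here. *KRT8* and *KRT19* were called, that is they passed an adjusted p of 0.05 and an absolute log2 fold change of 0.58, so that 2 of 8 keratins were called, both lower, against 4.79% of all genes in either direction and 1.52% lower. *KRT18* just missed the fold threshold and reached -0.59 without siNC replicate 1 or without siNC + TGFβ replicate 2. With the adjusted p alone 3 of 8 keratins were lower, against 6.67% of all genes. The median log2 fold change was -0.25 over the 8 keratins and -0.01 over all genes.

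In PHF13-depleted cells the same 3 genes were lower after TGFβ, by smaller amounts. *KRT19* was measured at 38577 and 40977 normalized counts in siPHF13 and at 30351 and 32788 in siPHF13 + TGFβ and fell by 20.6% (log2 fold change -0.33, SE 0.06, limma adjusted p = 0.00831). *KRT8* was measured at 95778 and 112937 and at 78047 and 83854 with TGFβ and fell by 22.4% (-0.36, SE 0.08, limma adjusted p = 0.0236). *KRT18* was measured at 36744 and 39775 and at 29408 and 32705 with TGFβ and fell by 18.8% (-0.30, SE 0.07, limma adjusted p = 0.0239). The treated and untreated libraries did not overlap for any of the 3, which for each gene has a probability of 0.333 by chance. With the adjusted p alone 3 of 8 keratins were thus lower, against 0.857% of all genes, but with the fold threshold limma, edgeR and DESeq2 each called 0 of 8, against 1.35% of all genes in either direction and 0.218% lower. At an unadjusted p under 0.05 limma passed 3 of 8, a count from which nothing is read, since the share of all genes at that threshold is not given. The adjusted p of all 3 exceeded the threshold without siPHF13 replicate 2 (0.124 to 0.270) and in a fit of only these 4 libraries (0.0526 to 0.113). That of *KRT8* was also lost without siNC replicate 1 (0.0643) or 2 (0.0634), and that of *KRT18* without either siNC replicate (0.0730 and 0.0721), siPHF13 replicate 1 (0.0541) or siPHF13 + TGFβ replicate 1 (0.0560).

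**Figure D1:**
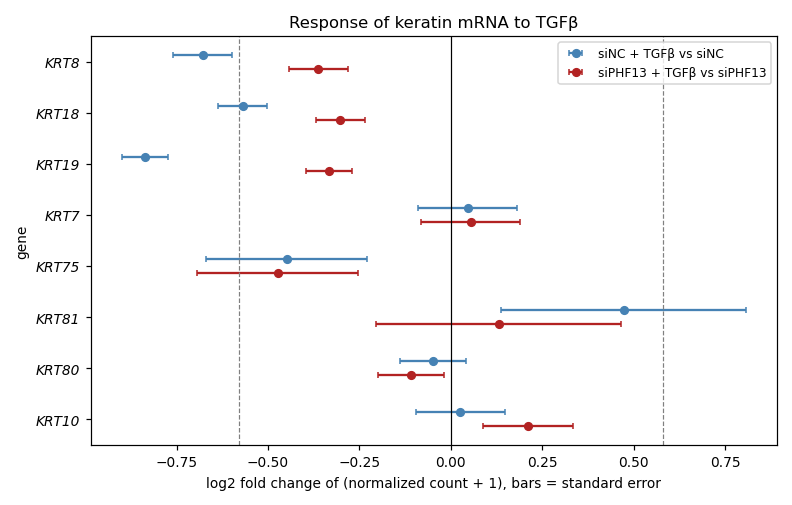
Log2 fold change after TGFβ in siNC cells (blue) and siPHF13 cells (red) for the 8 keratin genes, on the log2(normalized count + 1) scale, with standard errors from 2 libraries per group and dashed lines at the fold threshold of 0.58. *KRT8*, *KRT18* and *KRT19* lie below 0 in both, between -0.84 and -0.57 in siNC cells and between -0.36 and -0.30 in siPHF13 cells.

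The response to TGFβ was compared between siPHF13 and siNC cells in the same fit. For *KRT19* the fall was smaller after depletion by 0.50 on the log2 scale (SE 0.09, 95% interval 0.31 to 0.70, limma adjusted p = 0.0255). By construction this equals its log2 fold change after depletion with TGFβ (0.757) minus that without TGFβ (0.253). The keratins were chosen on depletion, so the p-value of this difference is not independent of that choice. This difference was under the fold threshold, so that limma, edgeR and DESeq2 each called 0 of 8 keratins, against 0.308% of all genes, and with the adjusted p alone 1 of 8 passed by each of the 3 tools, against 0.413%. At an unadjusted p under 0.05 limma passed 3 of 8, *KRT8*, *KRT18* and *KRT19*. The share of all genes at that unadjusted threshold is not given here, so nothing is read from this count. The size for *KRT19* stayed between 0.45 and 0.56 with any 1 library left out, but its adjusted p stayed under 0.05 only without siPHF13 + TGFβ replicate 1 (0.00141) or replicate 2 (0.0160). It was 0.156 and 0.334 without siNC replicates 1 and 2, 0.164 and 0.0631 without siPHF13 replicates 1 and 2, and 0.136 and 0.0802 without siNC + TGFβ replicates 1 and 2. The differences of *KRT8* (0.32, 95% interval 0.07 to 0.56, limma adjusted p = 0.341) and *KRT18* (0.27, 0.06 to 0.47, limma adjusted p = 0.334) had the same sign and did not pass the adjustment. Without siPHF13 + TGFβ replicate 1 that of *KRT18* passed as well (0.34, limma adjusted p = 0.0335).

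The levels after depletion differed among the 3 genes, in comparisons that share their libraries with those of TGFβ. *KRT19* was higher by 19.2% in siPHF13 than in siNC and by 69.1% in siPHF13 + TGFβ than in siNC + TGFβ, and the libraries did not overlap in either comparison (log2 fold changes 0.25 and 0.76, SE 0.06). The siPHF13 + TGFβ libraries of *KRT19*, at 30351 and 32788, lay one below and one between the siNC libraries, at 32426 and 34318. *KRT18* was lower by 0.33 on the log2 scale without TGFβ (SE 0.07), with both siPHF13 libraries below both siNC libraries, and differed by -0.07 with TGFβ, where the libraries overlapped. *KRT8* differed by -0.16 without TGFβ and by 0.15 with it (SE 0.08).

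Length-corrected levels, that is normalized counts per kb of the canonical transcript, put these 3 genes far above the other keratins in every group. In siNC the level per kb was 65326 ± 2777 (SD, n = 2) for *KRT8*, 34117 ± 834 for *KRT18* and 24009 ± 962 for *KRT19*, followed by *KRT80* at 599 ± 19, *KRT10* at 525 ± 12, *KRT7* at 258 ± 5, *KRT75* at 16.7 ± 3.0 and *KRT81* at 12.3 ± 6.2. The last pair did not differ beyond their spread. In siPHF13 *KRT8* was at 58496 ± 6801, *KRT19* at 28617 ± 1221 and *KRT18* at 27077 ± 1516, the order of the last pair now lying within their spread, and *KRT75* at 338 ± 4 stood above *KRT7* at 255 ± 8. The order depends on the gene model, since with the length of all annotated exons, 6.88 kb against 1.78 kb for *KRT8*, *KRT19* stood first in both siPHF13 groups.

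The ratio of *KRT18* to *KRT19*, which both encode type I partners of keratin 8, differed most between siNC and siPHF13. On the log2 scale of levels per kb it was 0.52 and 0.49 in siNC, 0.78 and 0.77 in siNC + TGFβ, -0.09 and -0.07 in siPHF13 and -0.07 and -0.03 in siPHF13 + TGFβ. All siPHF13 libraries lay below all siNC libraries. The *KRT8* to *KRT19* ratio was 1.44 ± 0.00 in siNC, 1.60 ± 0.02 in siNC + TGFβ, 1.03 ± 0.11 in siPHF13 and 1.00 ± 0.01 in siPHF13 + TGFβ, and the *KRT8* to *KRT18* ratio stayed between 0.81 and 1.17 in all libraries. The summed type II to summed type I level ranged from 0.02 to 0.19 on the log2 scale of the canonical transcripts, and its means lay between -0.90 and -0.77 on that of all exons. With the length of all annotated exons, an alternative added after seeing the data, the *KRT18* to *KRT19* ratio was 0.14 in siNC, 0.41 in siNC + TGFβ, -0.45 in siPHF13 and -0.42 in siPHF13 + TGFβ, so that a value near equality depends on the gene model while the order of the groups did not change. On that length the *KRT8* to *KRT19* ratio was 0.25 in siNC and -0.17 in siPHF13. No test was run on the ratios.

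**Figure D2:**
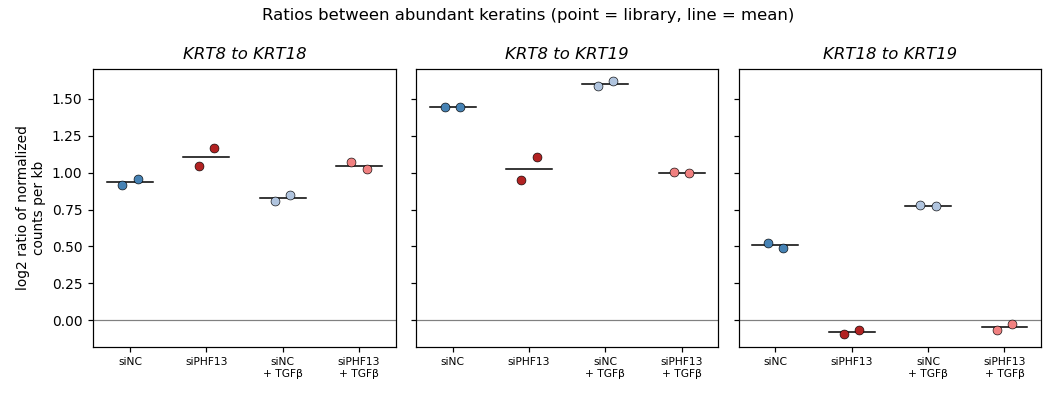
Log2 ratios of normalized counts per kb between *KRT8*, *KRT18* and *KRT19* in each library (points) with the mean of each group (lines). The *KRT18* to *KRT19* ratio lies between -0.09 and -0.03 in the 4 siPHF13 libraries and between 0.49 and 0.78 in the 4 siNC libraries.

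Among the 8 chosen genes *KRT75* had the largest difference after depletion, which is what it was selected on. It was measured at 40.8 and 31.5 normalized counts in siNC (43 and 35 reads), 727.1 and 738.8 in siPHF13 (731 and 749 reads), 31.3 and 21.6 in siNC + TGFβ (29 and 21 reads) and 564.6 and 492.8 in siPHF13 + TGFβ (523 and 512 reads). The siPHF13 means were 20.3 times those of siNC without TGFβ and 20.0 times with it (log2 fold changes 4.32 and 4.29, SE 0.22). Among 11201 genes that averaged 100 normalized counts or more these were rank 2 and rank 1. *KRT75* reached that average only through the siPHF13 groups, where it is high. *KRT37*, with larger log2 fold changes (4.76 and 4.40), fell under it. The ranks thus depend on the choice of *KRT75* and on this filter and are no support for a rise. Leaving out any 1 library gave log2 fold changes of *KRT75* between 4.14 and 4.50 without TGFβ and between 4.03 and 4.55 with it. Both comparisons have their own siNC group and their own siPHF13 group. Both TGFβ-treated libraries lay below both untreated libraries on either side, by -0.45 in siNC cells (limma adjusted p = 0.203) and -0.47 in siPHF13 cells (limma adjusted p = 0.361), and neither value passed the test. The TGFβ response of *KRT75* differed between siPHF13 and siNC cells by -0.02 (95% interval -0.70 to 0.65, limma adjusted p = 0.993). Its share of the summed keratin level per kb was at most 0.0187% in siNC libraries and at least 0.237% in siPHF13 libraries.

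*KRT81* was measured at 32.2 and 15.3 normalized counts in siNC against 164.1 and 239.7 in siPHF13, and with TGFβ at 28.0 and 35.0 against 206.2 and 229.1. Its siPHF13 means were 8.49 and 6.91 times the siNC means (log2 fold changes 3.10 and 2.76, SE 0.33), with no overlap of libraries, and siNC replicate 2 held only 17 reads. TGFβ gave 0.47 in siNC cells (limma adjusted p = 0.395) and 0.13 in siPHF13 cells (limma adjusted p = 0.917), with overlapping libraries. By size alone, *KRT75* and *KRT81* were the 2 of 8 keratins past the fold threshold in siPHF13 against siNC. With TGFβ they were joined by *KRT19* (3 of 8). All of these were higher. Both thresholds were passed by 18.4% of all genes without TGFβ (7.95% higher) and 20.5% with it (8.81% higher). That rule also uses the adjusted p, so these shares are no comparison for the keratins. Since the keratins were chosen on depletion, nothing is read from their counts.

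**Figure D3:**
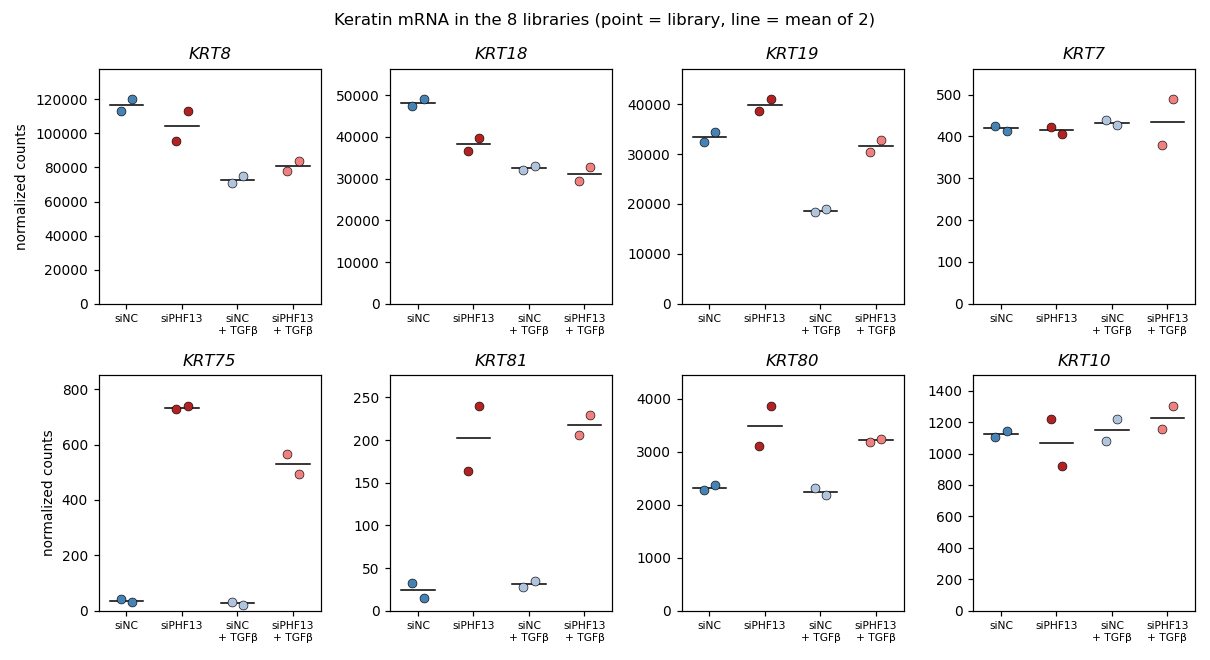
Normalized counts of the 8 keratin genes in each library (points) and the mean of each group (lines), with every axis starting at 0. *KRT75* is at 40.8 or less in the siNC libraries and at 492.8 or more in the siPHF13 libraries, and *KRT19* is lowest in siNC + TGFβ, at 18358 and 18991.

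The other 3 keratins differed less after depletion than *KRT75* and *KRT81*. *KRT80*, encoding a type II keratin of differentiating epithelia, was measured at 2268 and 2374 normalized counts in siNC against 3108 and 3857 in siPHF13, and with TGFβ at 2305 and 2183 against 3186 and 3239. It was higher after depletion by 50.1% and 43.2% (log2 fold changes 0.58 and 0.52, SE 0.09), without overlap, and the first of these was just under the fold threshold and past it with TMM scaling, edgeR and DESeq2. TGFβ gave -0.05 and -0.11 (limma adjusted p = 0.783 and 0.682). *KRT7*, the other ductal type II keratin, stayed between 378.9 and 488.9 normalized counts, with depletion differences of -0.02 and -0.01 (SE 0.13) and TGFβ differences of 0.05 and 0.05 (limma adjusted p = 0.872 and 0.914). *KRT10* stayed between 917.4 and 1301, with depletion differences of -0.09 and 0.10 (SE 0.12) and TGFβ differences of 0.03 and 0.21 (limma adjusted p = 0.924 and 0.500). The 95% intervals of the depletion differences reached from -0.31 to 0.28 for *KRT7* and from -0.35 to 0.36 for *KRT10*.

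The table held 5 further keratin genes, which the choice did not name and which were tested. Without TGFβ 2 of 5 rose after depletion, against 7.95% of all genes, and with TGFβ 3 of 5, against 8.81%. The lowest mean of any measured gene was 9.82 normalized counts. Keratins low in all groups are therefore absent, and nothing is read from these counts. *KRT86*, a type II hair keratin, was measured at 42.7 and 35.1 normalized counts in siNC against 167.1 and 178.5 in siPHF13, and with TGFβ at 41.0 and 62.7 against 169.5 and 172.3 (log2 fold changes 2.13 and 1.73, SE 0.26, limma adjusted p = 1.63e-05 and 8.55e-05). *KRT37*, a type I hair keratin, had 2 reads in the siNC libraries against 91 in siPHF13, and 2 reads against 83 with TGFβ. After scaling by depth the ratios were 48.8 (exact 95% interval 13.1 to 409) and 40.1 (10.8 to 337), where the intervals cover counting error only. *KRT37* was called in both comparisons (limma adjusted p = 1.74e-04 and 2.91e-04). Its mean was 0.95 in siNC and 1.05 in siNC + TGFβ, so it was measured only through the siPHF13 groups, where it is high. Its calls are therefore no support for a rise. *KRT222* was called with TGFβ (1.81, SE 0.64, limma adjusted p = 0.0303), but siNC + TGFβ replicate 2 held 3 reads against 21 in replicate 1. Without siNC + TGFβ replicate 2 the value was 0.55 (limma adjusted p = 0.368) and without replicate 1 it was 3.08. Without either siPHF13 + TGFβ replicate (0.0636 and 0.0700), in a fit of only the libraries compared (0.0746), with edgeR (0.0715) and with DESeq2 (0.0559) its adjusted p was over the threshold. *KRT15* and *KRT32* were not called, with log2 fold changes of -0.19 and -0.21 without TGFβ and of -0.41 and -0.19 with it. *KRT15* with TGFβ was lower by the adjusted p in limma (0.00432), edgeR and DESeq2 and missed only the fold threshold. To TGFβ itself 0 of the 5 responded by limma, edgeR or DESeq2 in siNC or in siPHF13 cells, with 1 of 5 under an unadjusted limma p of 0.05 in each (*KRT222* and *KRT15*). The share of all genes under that unadjusted p is not given.

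**Figure D4:**
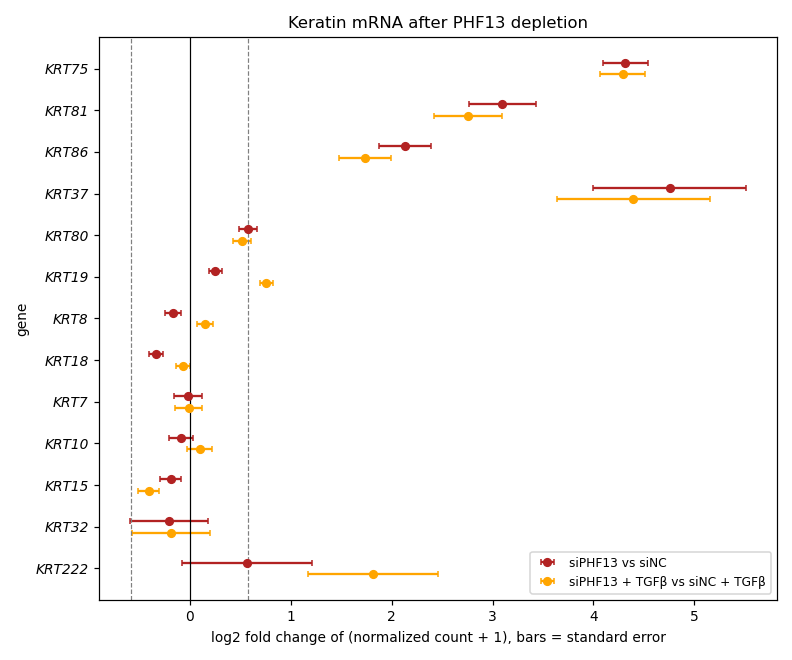
Log2 fold change after PHF13 depletion of the 13 keratin genes measured, without TGFβ (red) and with TGFβ (orange), on the log2(normalized count + 1) scale with standard errors and dashed lines at 0.58. *KRT75*, *KRT81*, *KRT86* and *KRT37* lie between 1.73 and 4.76, and the values of *KRT37* rest on 2 reads in each siNC group.

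Reads cannot always be assigned to a single keratin. Of the 150-base windows of the *KRT81* canonical transcript 25.6% are identical in *KRT86* transcripts, and 21.7% of those of *KRT86* in *KRT81*, so that the split of reads between both genes is uncertain. Of *KRT18* windows 12.3% occur in *KRT8* transcripts, of *KRT7* windows 5.22% in *KRT7-AS*, and *KRT75*, *KRT10*, *KRT19* and *KRT80* shared 0% with any of 371 keratin transcripts searched. Overlapping genes matter as well, and the strand setting of the counting is not given in the sources used here. Exons of other genes cover 10.2% of the canonical *KRT75* transcript and 36.5% of that of *KRT37* (a long noncoding gene on the opposite strand in each case), 31.1% of *KRT18* (*KRT8* and a microRNA gene), 13.6% of *KRT7*, 2.85% of *KRT10*, 20.2% of *KRT86* and 37.4% of *KRT222*.

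On the genome the type II genes and *KRT18* lie in one cluster on chromosome 12 (GRCh37 coordinates). *KRT80* lies at chr12:52562780-52585798 (minus strand), *KRT7* at chr12:52626304-52645970 (plus), *KRT86* at chr12:52643084-52702947 (plus), *KRT81* at chr12:52679697-52685318 (minus, within the *KRT86* gene model), *KRT75* at chr12:52817854-52828155 (minus), *KRT8* at chr12:53290971-53343738 (minus) and *KRT18* at chr12:53342655-53346690 (plus). *KRT10* (chr17:38974369-38978866) and *KRT19* (chr17:39679869-39684560), both on the minus strand, lie on chromosome 17. Within 500 kb of *KRT75* there were 7 other measured genes. Of these *KRT86* and *KRT81*, the nearest at 115 and 133 kb, passed both thresholds, higher after depletion in both comparisons (2 of 7, against 7.95% and 8.81% of all genes). *KRT81* was itself chosen on depletion, so that its pass is a description and no test. Both genes share identical windows and overlap in their models. Nothing is therefore read from this count. *KRT7*, at 172 kb and overlapping the *KRT86* model, differed by -0.02 and -0.01. *KRT8*, at 463 kb, differed by -0.16 and 0.15. Within 500 kb of *KRT19* there were 13 other measured genes, of which *KRT37* was higher and *HAP1*, encoding huntingtin-associated protein, lower (-0.83, SE 0.12, and -0.72, SE 0.12) in both comparisons. Called there were 1 higher and 1 lower without TGFβ and 2 higher and 1 lower with it, against 18.4% and 20.5% of all genes. The 500 kb windows and *HAP1* were chosen after the values were seen.

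Over the 8 libraries the genes with the profile most like *KRT75*, by Pearson's r of log2 values among 11200 genes that averaged 100 normalized counts or more, were *LLGL1*, *TFPI*, *POMGNT1*, *NSF* and *NOLC1* (r from 0.997 to 0.999). These are correlations across libraries that fall into depleted and control cells and describe that split. By Spearman's rho, which has many ties over 8 libraries, 0 of these 5 ranked in the top 5, and 94 genes reached a rho of 0.976, the highest among the 5, or more. *NOLC1*, a nucleolar phosphoprotein, was measured at 5907 to 6275 normalized counts in siNC and at 15781 to 15958 in siPHF13. Among the keratins that averaged 100 normalized counts or more, *KRT81* (0.958), *KRT80* (0.956) and *KRT86* (0.952) followed *KRT75* most closely, against 0.682 for *KRT19* and -0.31 for *KRT18*. Their ranks were only 674, 697 and 780 of the 11200 genes. *KRT37*, with a mean of 22.4, was not ranked.

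Transcripts of proteins that anchor keratin filaments at desmosomes moved in both directions after depletion. Of 20 plakin and desmosome genes 15 were measured, of which 2 rose and 4 fell without TGFβ (6 of 15, against 18.4% of all genes) and 2 rose and 5 fell with it (7 of 15, against 20.5%), with list medians of -0.12 and -0.29 against 0.00 over all genes. *DSP*, encoding desmoplakin, which ties keratin to the desmosome, was measured at 1711 and 1757 normalized counts in siNC and at 751.0 and 784.2 in siPHF13 (log2 fold change -1.17, SE 0.10, limma adjusted p = 6.63e-07) and fell by 1.10 with TGFβ. *PKP2* (plakophilin 2; -1.18 and -1.04), *EPPK1* (epiplakin; -1.17 and -0.95) and *DSC2* (desmocollin 2; -0.85 and -0.90) also fell in both comparisons, and *PLEC* (plectin), named after its value was seen, fell by 0.59 with TGFβ. *PERP* (0.87 and 0.78) rose in both, *PKP1* rose without TGFβ (0.74) and *PKP3* with it (0.59). To TGFβ in siNC cells *PKP1* rose (1.31, limma adjusted p = 2.10e-05) and *PPL*, encoding periplakin, fell (-1.21, limma adjusted p = 7.58e-07), and *PPL* also fell in siPHF13 cells (-0.83, limma adjusted p = 7.54e-05).

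Of 27 genes of cornification and protein deimination, the conversion of arginine to citrulline in keratins and other proteins, 9 were measured and 4 of 9 rose after depletion in both comparisons, against 7.95% and 8.81% of all genes. The list median was 0.66 without TGFβ and 0.80 with it, against 0.00 over all genes. This list was chosen with earlier results of these data known, so nothing is read from its count or median. *PADI1*, a peptidylarginine deiminase, was measured at 47.4 and 63.1 normalized counts in siNC against 746.0 and 932.2 in siPHF13. With TGFβ it was measured at 59.3 and 85.4 against 593.7 and 611.2 (3.91 and 3.06, SE 0.21). The same earlier results cover *PADI1*, so its values are a description without a test. *PADI2* rose by 1.20 and 0.80, and *PADI3*, with a mean under the 50 normalized counts required for naming and added after its values were seen, by 2.53 and 2.50. *TGM2*, a transglutaminase that crosslinks proteins, rose by 2.25 and 1.77 after depletion and was the 1 gene of this list called after TGFβ in siNC cells (0.94, limma adjusted p = 2.10e-06). In both siPHF13 groups the *PADI1* libraries lay above all siNC libraries, like those of *KRT75*.

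Of 16 intermediate filament genes outside the keratins 10 were measured, of which 3 rose and 1 fell after depletion without TGFβ (4 of 10, against 18.4% of all genes) and 1 rose and 2 fell with it (3 of 10, against 20.5%), with list medians of 0.07 and 0.22. *LMNB2*, encoding lamin B2 of the nuclear lamina, rose by 0.66 and 0.82, *BFSP1* rose by 0.78 without TGFβ, and *SYNM*, encoding synemin, fell by 0.74 and 0.83. The other calls, both with means under 50 and named after their values were seen, were *INA*, higher without TGFβ at 3.79 and 0.90 normalized counts in siNC and 47.7 and 69.1 in siPHF13 (4.27, SE 0.71), and *SYNC*, lower with it (-1.63, SE 0.58). In siNC *INA*, like *KRT37*, lay under the lowest mean of any measured gene, 9.82, so its call is no support for a rise. All 12 genes of keratin binding or turnover were measured, and 1 rose and 2 fell in both comparisons, 3 of 12 against 18.4% and 20.5% of all genes (list medians 0.00 and 0.07). *HSPB1*, a small heat shock protein, rose by 0.71 and 0.73, *UBE2D2*, a ubiquitin-conjugating enzyme, fell by 0.73 and 0.72, and *TCHP*, encoding the keratin-binding protein trichoplein, fell by 0.58 and 0.74.

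Of 22 transcription factors linked to keratin genes 17 were measured, of which 1 rose and 4 fell after depletion in both comparisons, 5 of 17 against 18.4% and 20.5% of all genes (list medians -0.44 and -0.29). *TFAP2C* rose by 1.51 and 1.60 (SE 0.16, limma adjusted p = 4.35e-06 and 2.36e-06), from 150.8 and 135.2 normalized counts in siNC to 411.8 and 406.4 in siPHF13. *GATA6* fell by 0.95 and 1.07 and *SOX9*, a ductal factor, by 0.82 and 0.62. *FOXA1* and *KLF5* had means under 50 and were named after their values were seen: *FOXA1*, at 24.7 and 23.4 normalized counts in siNC and 0 and 9.86 in siPHF13, was lower in both comparisons, and *KLF5* was lower without TGFβ. *FOXA1* was measured through the siNC groups, where it is high, so its calls are no support for a fall. After TGFβ in siNC cells *SOX9* rose by 0.90 while the epithelial factors *ELF3* and *GRHL3* fell by 1.18 and 0.92 (limma adjusted p = 2.51e-05 and 2.82e-05), in the comparison in which *KRT8* and *KRT19* fell. In siPHF13 cells *SOX9* rose by 1.09 and *ELF3* fell by 0.68.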

How the data were processed

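mRNA was sequenced from 4 groups of 2 Panc-1 libraries as paired reads. The authors trimmed them with Trim Galore 0.4.1, mapped them to hg19 with STAR 2.7.0, counted reads on exons with HTSeq 0.12.4 and normalized with DESeq2. The values used, as deposited by the authors, are a signal: gene counts divided by a library size factor. Further tables hold the authors' own fold changes and p-values and were not used. Dividing by the step of 1 read gave whole counts for 100% of the deposited values (tolerance 0.01).

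Values were transformed to log2(normalized count + 1), and one limma 3.58.1 fit with a trended prior variance (R 4.3.3) to the 8 libraries gave each comparison, with Benjamini-Hochberg adjustment over 13307 genes. Genes with adjusted p under 0.05 and absolute log2 fold change over 0.58 were called. Fold changes of low genes are understated on this scale. The test was checked on simulated data. The keratins and lists were chosen with earlier results of these data known, so nothing is read from the counts of the lists. For the same reason the adjusted p-values of list genes after depletion are a description. Named were *PHF13*, the chosen keratins, other keratins called, at most 4 called genes per list and direction with a mean of at least 50, and 5 genes most like *KRT75*. One list gene is not reported here. Alternatives were a pseudocount of 5, a minimum mean of 100, TMM scaling and quasi-likelihood tests (edgeR 4.0.16), DESeq2 1.42.0, fits of only the libraries compared, a replicate block, no fold threshold, another transcript length, Spearman's rho and each library left out.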

Additional observations from a re-analysis of the deposited data

Results flagged for a closer look

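The response of *KRT19* to TGFβ differed between siPHF13 and siNC cells by a test of the difference itself, by 0.5033 on the log2 scale (SE 0.09, limma adjusted p = 0.0255). This size was under the fold threshold, so *KRT19* was not called for the difference. With each library left out in turn the size stayed between 0.45 and 0.56. The adjusted p did not stay under its threshold in all of these fits. The keratins were chosen on depletion, so this p-value is not independent of that choice. Levels were lower with TGFβ in both libraries of siNC cells (-0.84) and in both libraries of siPHF13 cells (-0.33).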

How the results depend on the processing

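With the adjusted p alone, 6308 genes passed in siPHF13 against siNC (2448 with the fold threshold), 6712 with TGFβ (2726), 2114 for TGFβ in siNC cells (637) and 409 for TGFβ in siPHF13 cells (179). Of the 8 keratins 3 passed for TGFβ in siPHF13 cells and 1 for the difference in TGFβ response, where 0.413% of all genes did. The keratins were chosen on depletion and are not counted in siPHF13 against siNC. This setting by construction drops the fold threshold. A fit of only the libraries compared left 0 of 3 keratins past the adjusted p for TGFβ in siPHF13 cells, and the cause was not tested. With 1 library left out that number lay between 0 and 3, the number for the difference in TGFβ response between 0 and 2, and genes called for that difference between 12 and 111 (41 with all libraries). DESeq2 called 61 genes there and edgeR 42. Small log2 differences changed sign when 1 library was left out. After depletion *KRT32* lay between -0.44 and 0.024 without TGFβ and between -0.69 and 0.31 with it. *KRT7* lay between -0.050 and 0.014 without TGFβ and between -0.19 and 0.17 with it, *KRT10* between -0.29 and 0.12 without TGFβ, and *KRT18* between -0.14 and 0.0096 with it. For TGFβ in siNC cells *KRT10* lay between -0.061 and 0.11 and *KRT81* between -0.041 and 0.99. For TGFβ in siPHF13 cells *KRT7* lay between -0.13 and 0.24, *KRT80* between -0.26 and 0.047 and *KRT81* between -0.14 and 0.40. For the difference in response *KRT7* lay between -0.18 and 0.19, *KRT10* between -0.022 and 0.39, *KRT75* between -0.28 and 0.23, *KRT80* between -0.21 and 0.10 and *KRT81* between -0.85 and 0.17. The settings not named here changed no tested direction and moved no count of calls by over 1.5 times. *KRT32*, *KRT37* and *KRT222* gave no value under the minimum mean of 100. Genes such as *KRT37*, with 2 reads in each siNC group, are limited by depth.

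Libraries with the same replicate number deviated from their group means with correlations from -0.25 to 0.27 over 11201 genes, so that the number was not used to pair them. With the replicate block 630 genes were called for TGFβ in siNC cells, 171 in siPHF13 cells and 39 for the difference, and the number of keratins called or past the adjusted p was the same as without it in each of the 5 comparisons.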
